A study of Sus scrofa with 2 samples.

Results

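The genes that set the brake and the accelerator of the G1 phase were followed in somatic cells of 2 porcine antral follicles: the D-type cyclins CCND1, CCND2 and CCND3, their kinases CDK4 and CDK6, the Cip/Kip inhibitors CDKN1A (p21), CDKN1B (p27) and CDKN1C (p57), and the INK4 inhibitors CDKN2B (p15) and CDKN2C (p18). They were taken by symbol from the deposited gene list, where each of these 10 symbols stands once among 22342 genes, in both matrices. Both follicles, called AF75 and AF76 after the submitters' names for the data (the labels number them 1 and 2), came from 1 pubertal Landrace × Yorkshire pig of 210 days that had been given PMSG, and both were healthy and over 7 mm across. Granulosa cells in the flushed follicular fluid were sequenced with the 10x Genomics 3′ kit, 1 library per follicle. No treated and untreated groups exist, so the comparison within each follicle was between cycling cells and other cells. A cell was called cycling when TOP2A, UBE2C and CENPF, 3 genes of DNA replication and mitosis, had 5 or more UMIs (counted RNA molecules) in it together. A dividing cell in G1 or S phase with fewer of these UMIs therefore counts among other cells.

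In G1, a D-type cyclin binds CDK4 or CDK6, and the complex phosphorylates the retinoblastoma protein, which frees E2F factors to switch on the genes of DNA synthesis. INK4 inhibitors bind CDK4 and CDK6 themselves, while Cip/Kip inhibitors act on cyclin-bound kinases and restrain CDK2 in particular. In the ovary, CCND2 is the D-type cyclin that FSH induces in granulosa cells, and CDKN1B is known for the exit of granulosa cells from the cycle when they luteinize.

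Barcodes with 2000 to 5000 genes and less than 7% mitochondrial UMIs were taken, 9362 in AF75 and 7843 in AF76. Of them 428 (4.57%, 4.16–5.01) and 118 (1.505%, 1.25–1.80) were cycling. Only 96 and 19 of the cycling cells lay just inside the limit, with 5 to 9 marker UMIs, and 59 and 18 other cells lay just outside it, with 3 or 4. Cycling cells were the deeper ones, with a median of 15931.5 UMIs against 11102 in AF75 and 19163 against 13844 in AF76. The cells with the highest Scrublet doublet scores were 7.24% of cycling and 6.88% of other cells in AF75, and 10.2% and 6.85% in AF76. The libraries shared 56 deposited barcodes, 18 of them among the cells taken. INHA, an inhibin subunit of granulosa cells, was at 12162 to 23293 CPM in the 4 groups, whereas FSHR was at no more than 2.17 CPM in other cells. Of the genes fixed as a check, 11 of 11 tested G2/M genes and 13 of 14 tested S-phase genes were higher in cycling cells.

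A level is the sum of a gene's UMIs in a group of cells, scaled to the sum of all UMIs there and given as CPM (counts per 1000000). Each value is followed by its 95% interval, Poisson for levels, conditional for ratios and Clopper-Pearson for shares, all exact and all for counting error alone. UMIs came from 3′ ends, so levels are compared between cells and not between genes. Cycling cells were compared with other cells by edgeR's quasi-likelihood test on the 4 sums with the follicle as a block, and adjusted p-values were taken over all 12740 genes tested. As both follicles are from 1 animal, these p-values cover 2 follicles of 1 pig and no spread between animals. The block takes up the difference between follicles. With 1 residual degree of freedom, the spread that remains is largely borrowed across genes.

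All 10 genes passed the filter on low counts, and 6 of them passed the test. CDK4, CDKN1B and CDKN2C were higher in cycling cells, where 10.6% of all genes tested were higher, and CDK6, CDKN2B and CDKN1C were lower, where 8.79% of all genes were lower. CCND2 and CCND3 did not pass. For CCND1 and CDKN1A the counts in cycling cells were too few for a fold. Over the 8 genes with folds the median log2 change was -0.21, against -0.01 over all genes tested. Both DESeq2 and the edgeR fit without the follicle block called fewer, 2 (CDK4 and CDK6) and 1 (CDK4). With every cell thinned to 5000 UMIs, which left 254 and 75 cycling cells, CDK6 and CDKN2C passed and CDK4 came to 0.32 (edgeR, adjusted p = 0.19). Over all genes these fits called fewer as well. DESeq2 called 676 higher and 351 lower of 11011, and the fit without the block 453 and 89 of 12740. With thinned cells 674 and 544 of 11838 passed, where the main fit had 1354 and 1120 of 12740.

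**Figure D1:**
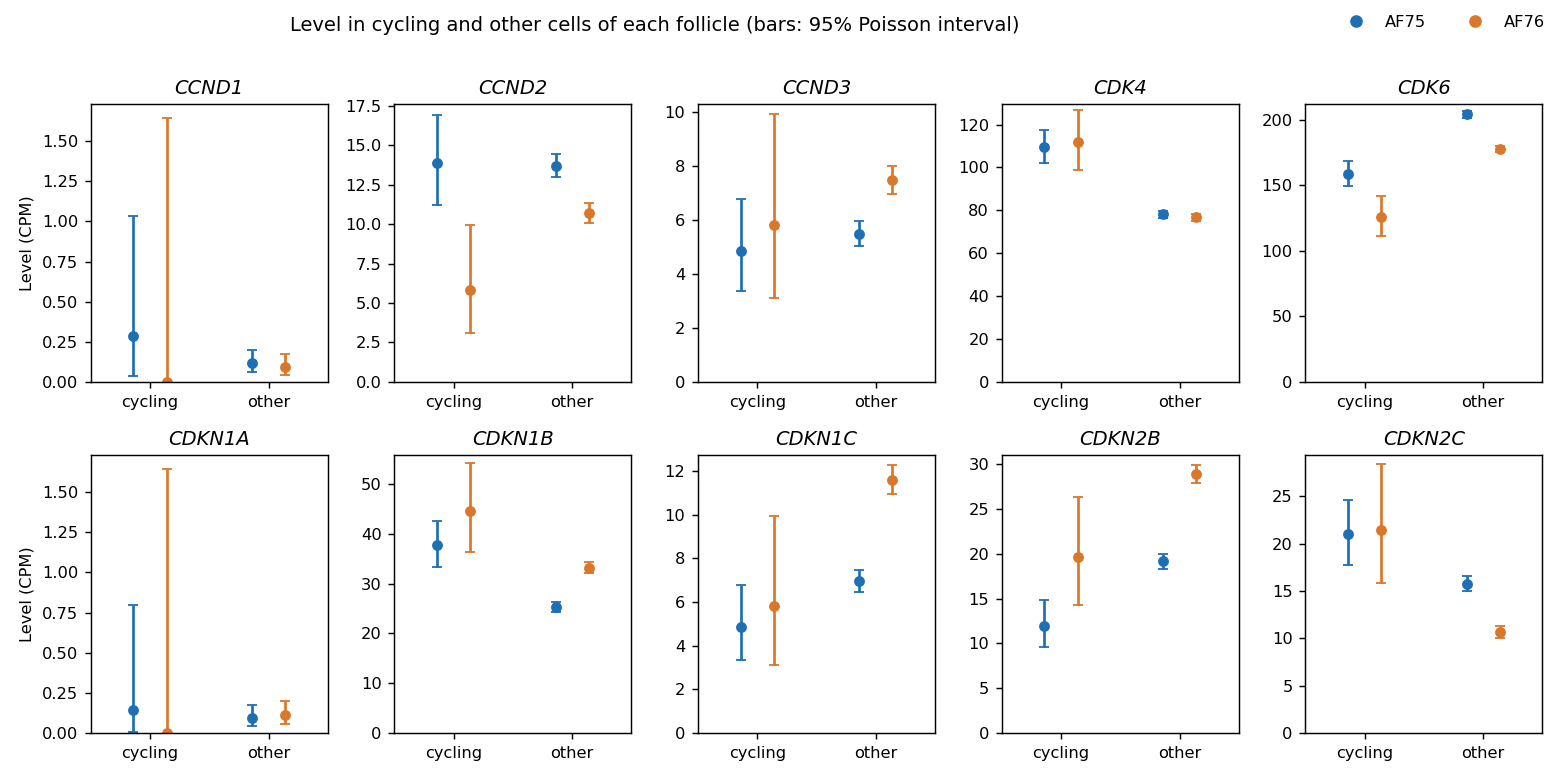
Level (CPM, linear axis from 0, scaled per gene) of each gene in cycling and other cells of AF75 (blue) and AF76 (orange), with 95% Poisson intervals. CDK4, CDKN1B and CDKN2C lie higher in cycling cells of both follicles and CDK6, CDKN1C and CDKN2B lower, on the CPM scale. CCND1 and CDKN1A rest on 2 UMIs or fewer in cycling cells.

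CDK4 (ENSSSCG00000025092, chromosome 5, 23039206–23041959, Sscrofa11.1), the kinase partner of the D-type cyclins, had the smallest p-value of the 10. Cycling cells had 109.6 CPM (102–118) in AF75, and 112 CPM (98.6–127) in the second follicle. Other cells had 78.2 CPM (76.5–79.9) and 76.8 CPM (75.2–78.5). The groups did not overlap, and the follicles gave nearly the same ratio, 1.40 (1.30–1.51) and 1.46 (1.28–1.65). The edgeR log2 fold change was 0.52 ± 0.09 (SE, n = 2 follicles, adjusted p = 6.6e-07).

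CDK6 (ENSSSCG00000040183, chromosome 9, 72510858–72765631, a record that RefSeq types as non-coding), the other partner of the D-type cyclins, went the opposite way. For cycling cells the level was 159 CPM (149.7–168) in AF75, against 126 CPM (112–141) for AF76. In other cells it was at 204 CPM (201–207) and 178 CPM (175–180.3). The levels of cycling cells lay below both levels of other cells, with ratios of 0.778 (0.732–0.827) and 0.708 (0.627–0.797). The log2 fold change was -0.41 ± 0.09 (edgeR, n = 2 follicles, adjusted p = 8.1e-05). Per cell, however, CDK6 was as high in cycling cells, at 2.60 and 2.39 UMIs against 2.38 and 2.45.

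That scale matters for each gene that was lower. Counted per cell, the median of all genes shifted by 0.46 on the log2 scale, since cycling cells held more UMIs. CDK4, CDKN1B and CDKN2C were then higher by 0.99, 0.99 and 1.11, CDK6 turned to 0.05, and CDKN1C and CDKN2B came to -0.21 and -0.15, so that the latter 3 no longer passed edgeR's test. On that scale 6611 of all 12740 genes tested passed as higher and 235 as lower. The 3 calls there thus do not set these genes apart. Relative to the shifted median, the changes of CDK6, CDKN1C and CDKN2B were -0.40, -0.66 and -0.61.

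Of the Cip/Kip inhibitors, CDKN1B (ENSSSCG00000037144, chromosome 5, 59731224–59735831) was higher in cycling cells. AF75 had 37.8 CPM (33.4–42.7) in cycling cells, and AF76 had 44.6 CPM (36.3–54.3). Other cells of AF75 had 25.3 CPM (24.4–26.3), and those of AF76 had 33.2 CPM (32.2–34.4). The ratios were 1.49 (1.31–1.696) and 1.34 (1.09–1.64), and the log2 fold change was 0.53 ± 0.12 (edgeR, n = 2 follicles, adjusted p = 2.4e-04).

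CDKN1C (ENSSSCG00000040461, chromosome 2, 2019391–2022092), an inhibitor from an imprinted locus, was lower. With 34 and 13 UMIs in cycling cells it reached 4.85 CPM (3.36–6.78) and 5.80 CPM (3.09–9.92) in the 2 follicles. Other cells had 6.94 CPM (6.44–7.46) and 11.6 CPM (10.9–12.3). The log2 fold change of -0.68 ± 0.24 passed the test narrowly (edgeR, n = 2 follicles, adjusted p = 0.031). Without the 674 AF76 cells and 2 AF75 cells of cluster 2, described later, it was -0.53 and did not pass (adjusted p = 0.13), while the other 5 calls held.

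CDKN1A (ENSSSCG00000001565, chromosome 7, 32354776–32363771), an inhibitor of cyclin-bound CDK2, was almost unseen. One UMI was counted in the cycling cells of AF75 and 0 in those of AF76, which allows up to 1.34 CPM. In other cells 10 and 12 UMIs gave 0.0960 CPM (0.0460–0.176) and 0.112 CPM (0.0581–0.196).

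Of the INK4 inhibitors, CDKN2C (ENSSSCG00000003876, chromosome 6, 161160290–161166681) was higher in cycling cells. There it reached 20.98 CPM (17.7–24.7) in AF75, with 21.4 CPM (15.8–28.4) for AF76. Other cells were at 15.8 CPM (15.002–16.5) and 10.6 CPM (10.01–11.3). Cycling cells of the 2 follicles were thus level, while their other cells differed, and the ratios were 1.33 (1.12–1.58) and 2.02 (1.48–2.69). The log2 fold change was 0.64 ± 0.16 (edgeR, n = 2 follicles, adjusted p = 7.2e-04).

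CDKN2B (ENSSSCG00000034120, chromosome 1, 200666250–200770880), an inhibitor that TGF-β induces, was lower. AF75 had 11.99 CPM (9.56–14.8) in cycling cells, AF76 19.6 CPM (14.3–26.4). Other cells had 19.2 CPM (18.3–20.03) and 28.9 CPM (27.9–29.99). The level in cycling cells of AF76 overlapped that in other cells of AF75, so the difference was one within follicles, with ratios of 0.625 (0.497–0.778) and 0.679 (0.492–0.913). The log2 fold change was -0.62 ± 0.16 (edgeR, n = 2 follicles, adjusted p = 8.8e-04). The RefSeq record spans 104631 bases, and CDKN2A, its neighbour in other mammals, has no row in the gene list, so transcripts of that locus cannot be told apart here.

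The 250 bases before each RefSeq start were searched because E2F factors act downstream of these genes and feed back on some. None of the 10 windows held an E2F word (TTTCCCGC, TTTCGCGC, TTTGCCGC or TTTGGCGC, both strands), which 2.81% of 19556 windows hold. The CHR word (TTTGAA or TTTAAA) stood in that of CCND2 alone, and in 20.8% of all. A GC box (GGGCGG, both strands) stood in 8 of 10, against 45.9% of all. A match describes the letters only. The windows of the genes with the largest fitted folds in either direction, CDKN2C and CDKN1C, both on the minus strand of Sscrofa11.1, are shown 5′ to 3′ with GC boxes in capitals.
CDKN2C, chr6:161166682-161166931: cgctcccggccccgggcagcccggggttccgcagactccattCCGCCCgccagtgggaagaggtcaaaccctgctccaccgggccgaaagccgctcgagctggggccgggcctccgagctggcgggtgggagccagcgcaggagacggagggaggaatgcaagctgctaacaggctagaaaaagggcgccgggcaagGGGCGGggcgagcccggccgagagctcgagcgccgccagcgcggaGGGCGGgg
CDKN1C, chr2:2022093-2022342: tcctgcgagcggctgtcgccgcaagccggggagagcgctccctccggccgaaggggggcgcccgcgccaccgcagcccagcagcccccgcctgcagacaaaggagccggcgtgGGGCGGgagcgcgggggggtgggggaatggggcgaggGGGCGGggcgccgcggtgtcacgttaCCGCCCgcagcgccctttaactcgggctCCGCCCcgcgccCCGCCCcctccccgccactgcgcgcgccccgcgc
The first window held 3 GC boxes and 28 CG pairs at 74.0% G and C, and the second 5 and 38 at 80.8%. In CDKN2B the RefSeq start lay in a window of 33.2% G and C with 1 CG pair.

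The cyclins showed no difference that passed between cells called cycling and other cells. Levels in G1 cells were not measured apart. CCND2 (ENSSSCG00000038694, chromosome 5, 66092483–66114575) had 13.8 CPM (11.2–16.9) in cycling cells of AF75, but 5.80 CPM (3.09–9.92) for AF76. Other cells had 13.7 CPM (13.0–14.4) and 10.7 CPM (10.1–11.3). The ratio was 1.01 (0.815–1.24) in AF75 but 0.544 (0.289–0.933) in AF76, which rests on 13 UMIs. Over both, the log2 fold change was -0.19 ± 0.19 (edgeR, n = 2 follicles, adjusted p = 0.59), and it turned positive, to 0.21, when all cells were thinned to 5000 UMIs.

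CCND3 (ENSSSCG00000032284, chromosome 7, 37087336–37182462) was at 4.85 CPM (3.36–6.78) and 5.80 CPM (3.09–9.92) in cycling cells of AF75 and AF76. Other cells had 5.48 CPM (5.04–5.95) and 7.45 CPM (6.94–7.99). The intervals overlapped within each follicle, and the log2 fold change was -0.23 ± 0.26 (edgeR, n = 2 follicles, adjusted p = 0.65). Its record overlaps TAF8 on the opposite strand. CCND1 (ENSSSCG00000037900, chromosome 2, 3621242–3633380) had 2 UMIs in cycling cells of AF75, 0 in those of AF76, and 12 and 10 in other cells, 0.115 CPM (0.0595–0.201) and 0.0937 CPM (0.0450–0.172). At this depth neither CCND1 nor CDKN1A could be compared.

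**Figure D2:**
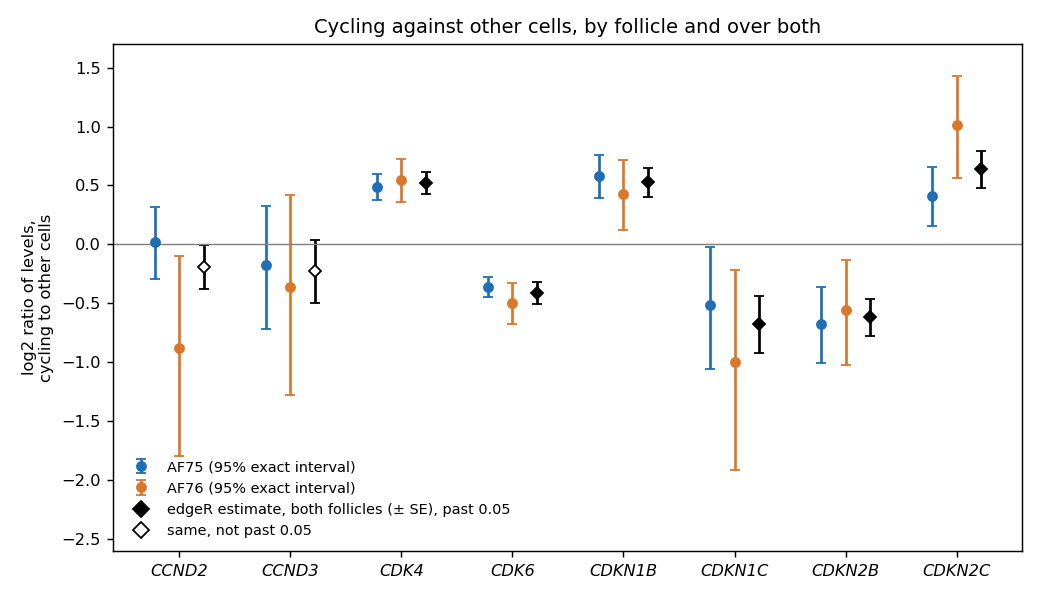
log2 ratio of the level in cycling cells to that in other cells for the 8 genes with folds, in AF75 and AF76 (95% exact intervals) and as edgeR's estimate over both (± SE, filled where the adjusted p is under 0.05). On the CPM scale the follicles lie on the same side of 0 for every gene but CCND2; on the scale of UMIs per cell, CDK6 turns to 0.05.

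The rest of the G1 switch was read from a list of 19 genes around RB and E2F, of which 16 were tested. In all, 5 were higher in cycling cells (E2F8, CKS1B, RBL1, CDK2 and E2F3), 0 were lower, and the median log2 change was 0.54. E2F8, a repressor among the E2F factors and a late target of them, was at 5.71 and 6.70 CPM in cycling cells against 0.0384 and 0.00937 CPM in other cells, from 4 UMIs and 1 UMI. CKS1B, which serves in the degradation of CDKN1B, was at 133 and 149.6 CPM against 25.1 and 25.7 CPM (log2 fold change 2.48, edgeR, adjusted p = 4.9e-133). RBL1, the p107 relative of RB, was at 43.8 and 28.1 CPM against 13.0 and 7.63 CPM (1.81, adjusted p = 3.5e-33). Of 3 other inhibitors, CDKN3, a phosphatase of CDK2 and CDK1, was at 73.5 and 84.4 CPM against 10.4 and 9.88 CPM (2.95, edgeR, adjusted p = 1.1e-124), CDKN2D did not pass, and CDKN2A has no row. These changes were larger than any of the 8 genes, whose log2 folds stayed between -0.68 and 0.64.

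Levels were also read along the number of marker UMIs. CDK4 was at 78.2, 77.7 and 79.3 CPM in AF75 cells with 0, 1 and 2 to 4 marker UMIs, and then at 98.5 and 124 CPM with 5 to 19 and 20 or more. In AF76 it was at 76.7, 77.3, 92.1, 109 and 114 CPM. In both follicles the 2 steps from 5 marker UMIs up were thus the highest, although neighbouring steps overlapped in AF76 and, at the limit itself, in AF75 (67.0–93.4 against 88.9–108.9). CDKN1B stood at 23.5 to 25.4 CPM below the limit in AF75, at 34.2 CPM with 5 to 19 marker UMIs and at 42.4 CPM (35.5–50.3) with 20 or more. In AF76 it stood at 33.1 to 35.2 CPM up to 19 marker UMIs, and at 51.3 CPM (39.99–64.8) above. CDK6 fell short of its level in marker-free cells, 204 and 178 CPM, at 154 CPM (140.0–168) and 111 CPM (93.7–129.8) in the highest step. CDKN2C had 26.2 CPM (20.8–32.6) and 22.7 CPM (15.4–32.2) there, against 16.02 and 10.6 CPM in marker-free cells. With 5 to 19 marker UMIs, which 257 of the 428 cycling cells of AF75 had, it was level with marker-free cells in AF75, at 16.8 CPM (13.03–21.4), and at 19.4 CPM (11.3–31.1) in AF76. CDKN2B was uneven below the limit. With 1 marker UMI it was at 17.5 CPM (14.6–20.7) in AF75, where marker-free cells had 19.5 CPM, but at 39.6 CPM (33.9–45.9) in AF76, above the 28.6 CPM (27.6–29.7) of marker-free cells. With 2 to 4, the 13 UMIs of AF75 gave 7.11 CPM (3.79–12.2), and the 16 UMIs of AF76 gave 16.9 CPM (9.68–27.5). For CCND2 the 2 follicles parted in the highest step, at 16.8 CPM (12.6–22.1) and 4.397 CPM (1.61–9.57).

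**Figure D3:**
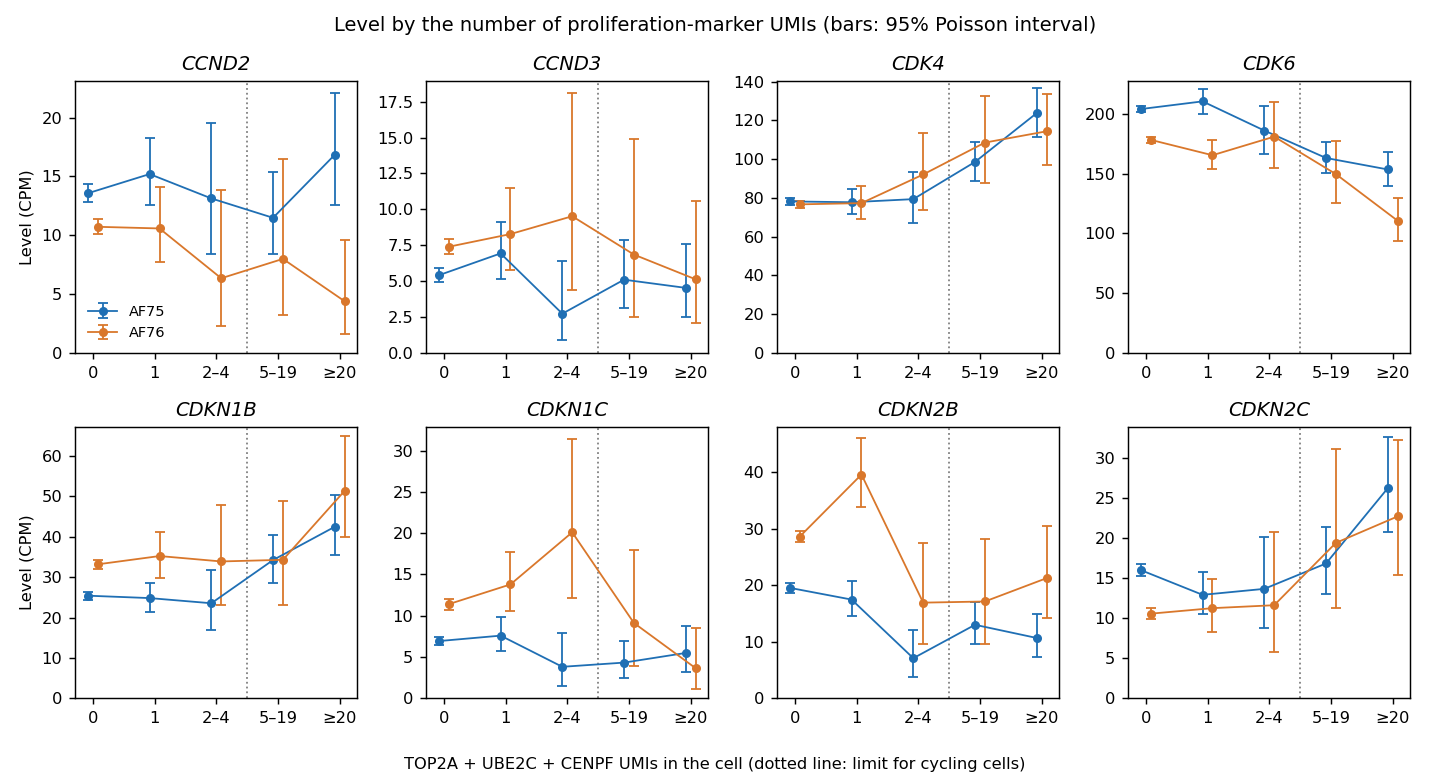
Level (CPM, from 0) of 8 genes in cells grouped by their UMIs of TOP2A, UBE2C and CENPF together, for AF75 (blue) and AF76 (orange) with 95% Poisson intervals; the dotted line marks the limit for cycling cells. CDK4 in AF75 stays at 77.7 to 79.3 CPM left of the line and reaches 124 CPM at the right end, and CDK6 runs down to 154 and 111 CPM, on the CPM scale; per cell, CDK6 as a whole turns to 0.05 (log2).

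Within cycling cells, those with more S-phase than G2/M UMIs (126 in AF75, 42 in AF76) were compared with the rest (302 and 76). Of the 8 genes with enough counts for this, 0 passed edgeR's test, where 1.04% of 8846 genes did, and DESeq2 also called 0 of them. At an unadjusted edgeR p under 0.05, CDKN2C alone of the 8 genes passed, but so did 633 of the 8846 genes. This does not set it apart. CDKN2C was at 15.3 CPM (10.5–21.6) in S-leaning cells against 23.4 CPM (19.3–28.1) in AF75. In AF76 it was at 12.3 CPM (5.89–22.6) against 26.7 CPM (18.9–36.6). Its log2 fold change was -0.76 ± 0.26 (edgeR, n = 2 follicles, adjusted p = 0.19). In both follicles the G2/M-leaning interval of CDKN2C lay above that of other cells. The S-leaning intervals, from 32 and 10 UMIs, overlapped both the level of other cells and the G2/M-leaning intervals. The excess over other cells therefore cannot be placed in either group of cycling cells. CDK4 was high in both, at 124 CPM in S-leaning and 104 CPM in G2/M-leaning cells of AF75, with 123 and 106 CPM for AF76.

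Clustering on genes other than these 10 gave 6 clusters, and their levels are given as a description. Cluster 0 (6343 cells of AF75, 5875 of AF76) was led by TGFB3, ENPP2 and IL33, and cluster 1 (2373 and 969) by ARPP21, SHAS2 and ALPK2. Cluster 2 (2 and 674) was led by CEMIP, CCDC80 and FBXO32, cluster 3 (451 and 121) by TOP2A and CENPF, and cluster 4 (173 and 178) by SPP1 and CTSS. Cluster 5 had 20 and 26 cells, too few for a level. Cluster 3 held 412 of 428 and 112 of 118 cycling cells. Among clusters 0, 1, 3 and 4, the highest one was the same in both follicles for 5 of 8 genes: cluster 3 for CDK4, CDKN1B and CDKN2C, cluster 1 for CCND2 and cluster 4 for CCND3. The same count was not made over all genes, and cluster 3 largely repeats the cycling group. For each of the 5 genes, the interval of the highest cluster overlapped that of another in 1 follicle or both. CCND3 in AF75 was at 6.48 CPM (3.45–11.1) in cluster 4 and 5.73 CPM (5.20–6.30) in cluster 0. With cells thinned to 5000 UMIs the highest cluster was the same for 2. Of the 5 genes, CDK4 alone had the same highest cluster in both follicles in every alternative run.

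The 674 AF76 cells of cluster 2 had higher levels of CCND2, CCND3, CDKN1B and CDKN1C than clusters 0, 1, 3 and 4 of either follicle. CDK4, at 119 CPM (109.7–129), was level with cluster 3 of AF76, at 114 CPM (100.4–129). CDKN1C was at 74.7 CPM (67.2–82.9) there against 7.65 CPM in cluster 0 of AF76, a ratio of 9.77 (8.56–11.1). CCND3 was at 40.4 CPM (34.9–46.5) against 5.66 CPM, a ratio of 7.13 (6.001–8.44). For CCND2 the level was 50.2 CPM (44.1–57.0) against 8.66 CPM, or 5.80 (4.99–6.72), and for CDKN1B 91.0 CPM (82.7–99.99) against 30.6 CPM, or 2.97 (2.68–3.29). CDKN2B went the other way, at 18.6 CPM (14.96–22.9) against 29.2 CPM. Of the 8 genes, 5 were over 1.5-fold higher in cluster 2, those 4 and CDK4, where 39.2% of all genes were.

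These cells differed in more than the 10 genes. Their median depth was 6429 UMIs against 14223 in cluster 0 of AF76. The 6 granulosa markers summed to 4526 CPM against 26792 CPM, a fall that lay in INHA, at 2239 against 24558 CPM. NR5A2 was also lower, at 205 against 499.6 CPM. FSHR, AMHR2 and CYP11A1 were higher, at 38.3 against 0.366 CPM, 43.7 against 3.72 CPM and 1963 against 1694 CPM. CYP19A1 was level, at 35.8 and 36.0 CPM. The 6 stromal and smooth muscle markers summed to 295 CPM against 10.5 CPM, TAGLN and ACTA2 at 203 and 61.5 CPM. One cycling cell was among them. They are therefore called by their leading genes. In a finer grouping into 12 clusters, 31 of them stood apart, led by CCL26 and KRT8 among others, and there CCND2 was at 266 CPM (212–331), from 82 UMIs in 23 cells with at most 10 in 1 cell. The other 643 cells fell, with 1 more, into a group where CCND2 was at 35.3 CPM (29.99–41.2) and CDKN1C at 75.2 CPM (67.4–83.7).

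**Figure D4:**
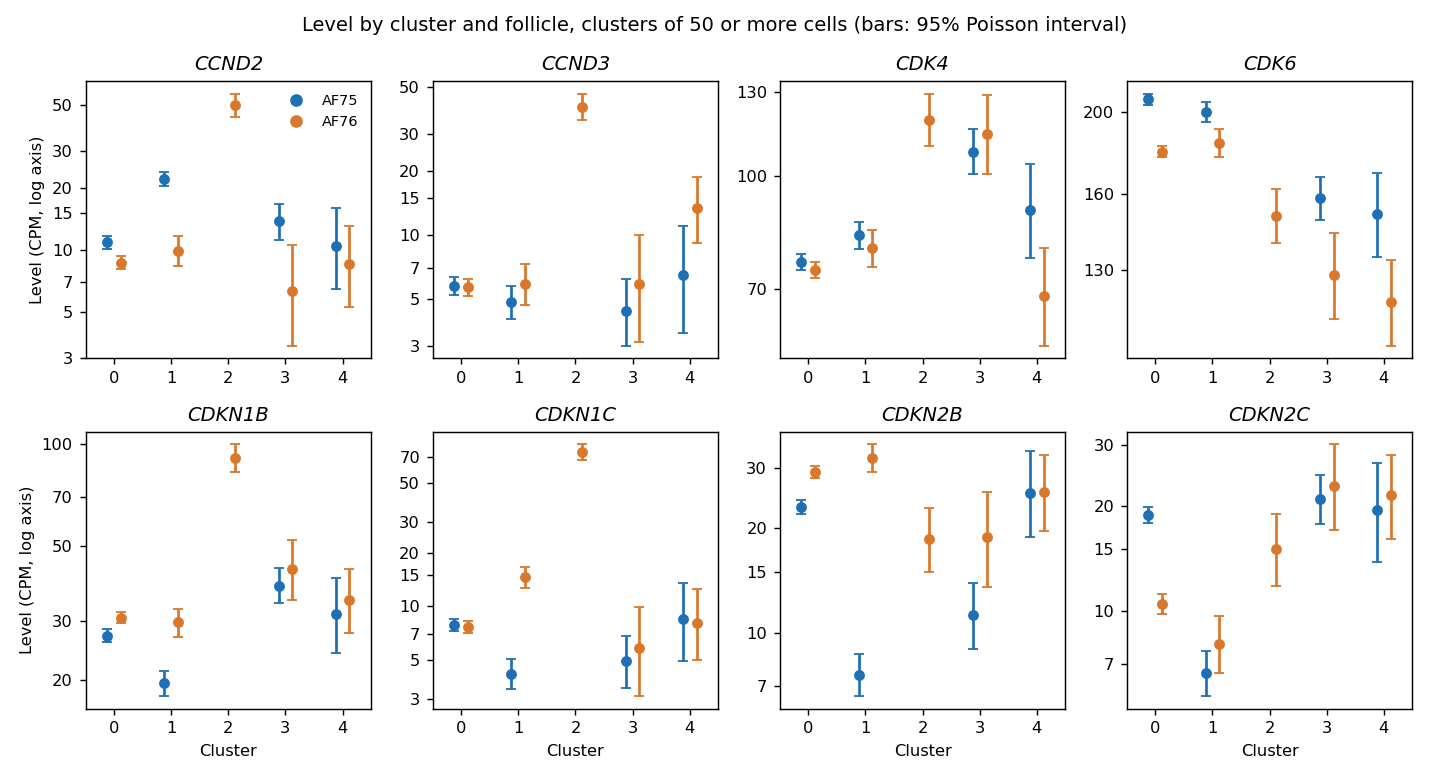
Level (CPM, log axis) of 8 genes in clusters 0 to 4, for each follicle with 50 or more cells in the cluster; bars are 95% Poisson intervals. Cluster 2, which AF75 all but lacks, is highest for CCND2, CCND3, CDKN1B and CDKN1C, and in cluster 1 CDKN2B is at 7.56 CPM for AF75 but 31.96 CPM for AF76.

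Of the 8 genes with folds, 4 were over 1.5-fold apart between the follicles in cluster 1 (CCND2, CDKN1B, CDKN1C and CDKN2B), and 1, CDKN2C, in cluster 0. In cluster 1, CDKN2B had 7.56 CPM (6.55–8.69) for AF75, but 31.96 CPM (29.1–35.02) for AF76, a ratio of 4.23 (3.57–5.02). In cluster 0 the ratio was 1.26 (1.19–1.34). CDKN1C was at 4.16 CPM (3.42–5.01) and 14.7 CPM (12.7–16.8) in cluster 1, a ratio of 3.52 (2.78–4.48), although in cluster 0 it was level, at 7.87 and 7.65 CPM. CCND2 ran the other way, from 22.04 CPM (20.3–23.9) for AF75 to 9.91 CPM (8.35–11.7) for AF76, a ratio of 0.450 (0.372–0.541), against 0.797 (0.721–0.882) in cluster 0. CDKN1B had a ratio of 1.51 (1.33–1.72) in cluster 1 and of 1.13 (1.07–1.20) in cluster 0. Cluster 1 of AF75 thus paired the higher CCND2 with the lower CDKN2B and CDKN1C. Over all genes, 20.6% were over 1.5-fold apart in cluster 1 and 6.83% in cluster 0.

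Markers moved with this. The 3 cumulus markers (VCAN, TNFAIP6 and PTX3) in cluster 1 summed to 8423 CPM for AF75, but 1445 CPM for AF76, and the 2 mural markers, AREG and CYB5A, to 1210 and 4723 CPM. The cumulus sum was nearly all VCAN, at 5744 and 1084 CPM, and TNFAIP6, at 2677 and 358 CPM. PTX3 went the other way, at 1.63 and 2.65 CPM. What part these markers had in the difference was not tested. In the finer grouping, 964 cells of cluster 1 of AF75, led by ALPK2, CALCRL and PTGS2, held the extreme: CCND2 was at 29.4 CPM (26.2–32.9), CDKN2B at 2.90 CPM (1.96–4.14), CDKN2C at 4.25 CPM (3.09–5.71) and CDKN1C at 1.84 CPM (1.11–2.87). AF76 had 34 cells of that group, too few for a level.

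CDKN2C also differed by cluster and follicle. In AF75 it was at 18.8 CPM (17.9–19.8) in cluster 0 and 6.62 CPM (5.67–7.67) in cluster 1. AF76 had 10.4 CPM (9.77–11.2) and 8.02 CPM (6.62–9.63). Its follicle difference lay in cluster 0, with a ratio of 0.554 (0.509–0.603), while in cluster 1 it was 1.21 (0.950–1.54).

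Summed over all other cells, 2 of the 10 genes were over 1.5-fold apart between AF76 and AF75, where 11.1% of 12998 genes were. They were CDKN1C, at a ratio of 1.67 (1.52–1.83), and CDKN2B, at 1.51 (1.43–1.60). With 1 library per follicle no test was made. Without cluster 2 the ratio of CDKN1C was 1.24 (1.13–1.37), that of CCND2 went from 0.780 (0.721–0.844) to 0.645 (0.592–0.701), and that of CDKN2C from 0.674 to 0.661, so that of the 8 genes with folds 3 (CCND2, CDKN2B and CDKN2C) were then over 1.5-fold apart. CDKN2C crossed that limit by a small change, and the share of all genes without cluster 2 was not computed. CDKN1A, with 5 UMIs in AF76 and 10 in AF75, was at 0.511 (0.137–1.64). CDK4 was alike, at 0.983 (0.953–1.01).

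Since clusters 0 and 1 differed in their inhibitors, cycling cells were also set against the other cells of each, with no test. CDK4 was higher than in both clusters in both follicles, by ratios of 1.32 to 1.51, and CDKN1B likewise, by 1.40 to 1.93, while CDK6 was lower than in both, at 0.684 to 0.794. For these genes the side did not depend on the cluster. CDKN2B in cycling cells of AF75 was at 0.518 (0.411–0.645) of its level in cluster 0 but 1.60 (1.23–2.08) times that in cluster 1. In AF76 the ratios were 0.673 (0.488–0.906) and 0.614 (0.440–0.838). CDKN2C in cycling cells of AF75 was 1.11 (0.932–1.32) times its level in cluster 0 and 3.15 (2.52–3.95) times that in cluster 1, against 2.05 (1.5001–2.74) and 2.67 (1.86–3.77) in AF76. CDKN1C was at 0.617 (0.423–0.872) and 1.16 (0.766–1.72) in AF75 and at 0.758 (0.402–1.31) and 0.396 (0.207–0.692) in AF76. The lower CDKN2B and CDKN1C of cycling cells in AF75 were thus seen against cluster 0 and not against cluster 1.

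Cycling cells of AF75 had more of the cumulus markers than its other cells, 4795 against 2862 CPM, while in AF76 the sums were 642 and 659 CPM. All 3 passed as higher by edgeR over both follicles, although their sum was not higher in AF76. VCAN was at 439 against 426 CPM in AF76, so the rest of that sum was lower in its cycling cells. In AF75 VCAN was at 3017 against 1990 CPM. PTX3 was at only 5.51 and 3.25 CPM in other cells of AF75 and AF76. Both mural markers and all 3 theca markers were lower by edgeR. The 6 granulosa markers summed to 14433 against 22658 CPM and 20008 against 25493 CPM, with 3 of them lower and 1 higher by edgeR. Stromal and smooth muscle markers (3.85 to 24.1 CPM) and immune markers (4.91 to 13.4 CPM) were low in all 4 groups. The part of these markers in the differences was not tested. In an alternative, other cells were weighted to the VCAN deciles of cycling cells, which matches them on VCAN alone and not on cluster. The same 6 genes passed there, as did 1319 of 12720 genes as higher and 1107 as lower. CDKN2B was then at -0.48 and CDKN2C at 0.84 on the log2 scale, against -0.62 and 0.64 without weights.

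**Figure D5:**
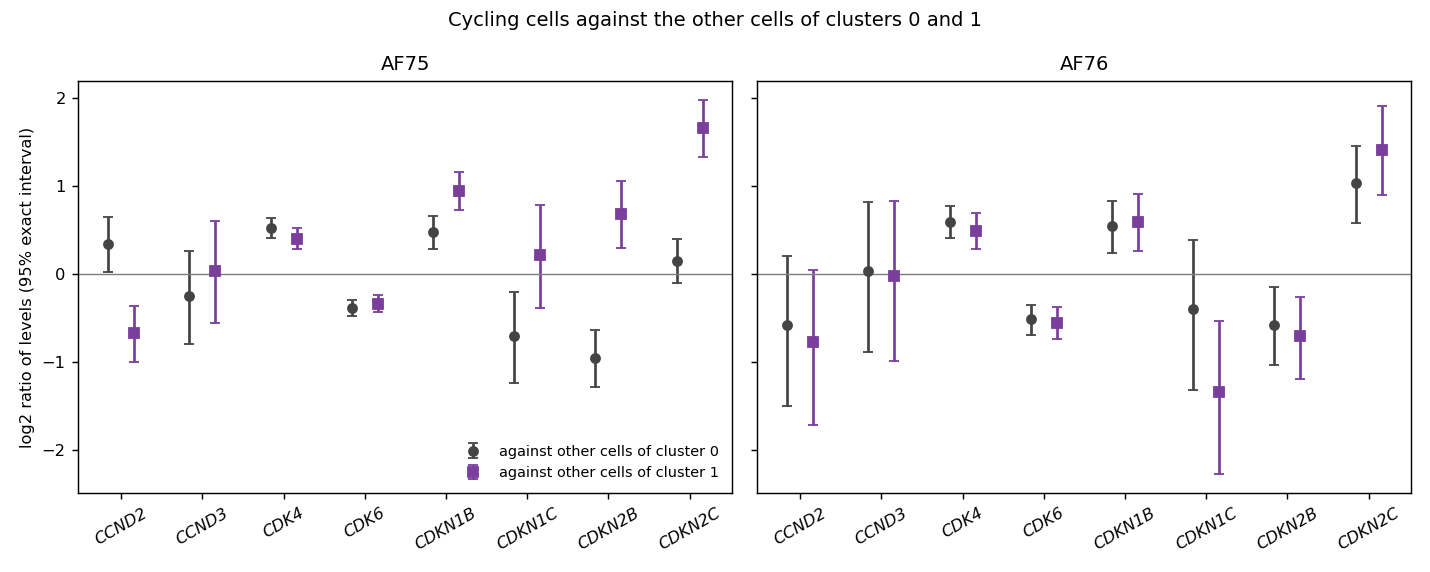
log2 ratio of the level in cycling cells to that in the other cells of cluster 0 (grey circles) and of cluster 1 (purple squares), with 95% exact intervals, for each follicle, on the CPM scale. CDK4 and CDKN1B lie above 0 and CDK6 below 0 in all comparisons, and CDKN2B of AF75 lies on opposite sides, at ratios of 0.518 and 1.60.

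Over the 9 groups of cluster and follicle with 50 or more cells, the genes with the most similar patterns were named by Pearson's r of log2(CPM + 1), as a description over groups that share libraries. CDKN1C was most like OPA1, CAPZB and RERE, at 0.98 to 0.99, and CCND3 most like PTPN18, PCED1A and MFSD3, at 0.99. CCND2 was most like PLS3, PLEKHH2 and MYO18A, at 0.98 to 0.99, and CDKN1B most like CCNG2, C1orf174 and CCDC93, at 0.98. Without cluster 2 the r of these 12 pairs was 0.88 to 0.97. CDK4 was most like STARD9, GTF3C2 and RPP21, at 0.98, and CDK6 most like WSB1, IKBKG and PLCB1, at 0.94 to 0.95. CDKN2B was most like LACTB2, CNST and IFT22, at 0.92 to 0.96, and CDKN2C most like UBL4A, GTF2A1 and C5orf30, at 0.89 to 0.92.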

How the data were processed

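The authors counted UMIs against Sscrofa11.1 with CellRanger (6.0.2, per the file headers). The deposited values are raw UMI counts of each gene in each barcode it called, 125409747 UMIs in 14289 barcodes of AF75 and 127414267 in 15548 of AF76, without filter or normalization. Identifiers are those of Ensembl, and coordinates and sequences are those of RefSeq on the same assembly.

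Cells were barcodes with 2000 to 5000 genes whose UMIs came from 13 mitochondrial genes at under 7%. No doublets were removed, and leaving out the 6.9% of cells with the highest Scrublet score (scanpy 1.11.5) was an alternative. UMIs were summed per follicle and group. Genes with at least 10 UMIs in at least 2 of 4 sums were tested with edgeR 4.0.16 (TMM, quasi-likelihood, Benjamini-Hochberg, R 4.3.3), with 1 residual degree of freedom, so that the spread is largely borrowed across genes. Standard errors were derived from the test. The follicle is the block because both sums come from 1 library. DESeq2 1.42.0 was an alternative. The test was checked on simulated data. Clusters came from Seurat 5.3.0 (anchors, 2000 variable genes without the 10 genes, 40 components, 6 clusters at a resolution of 0.18), and likeness used genes at 10 CPM or more in 1 group.

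All 10 genes were named, with the 3 largest changes past the threshold in each list and the 3 most similar genes per gene. The genes, lists and tests were chosen with earlier results of these data known. One further gene list is not reported here. CDK2 and E2F3 were named after their values were seen, as were the finer clusters and the comparison with clusters 0 and 1. Alternatives covered the tool, block, scaling, filters, cycling limit (3 or 10), depth, VCAN, doublets and clustering. The oocyte was not analysed here.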

Additional observations from a re-analysis of the deposited data

Results flagged for a closer look

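Barcodes outside the limits on genes enter no comparison above, but 5 values of the 10 genes there had intervals wholly above 1.5 times the level in other cells of the same follicle. In 6462 barcodes of AF76 with under 2000 genes, CDKN1C was at 34.9 CPM (31.4–38.7) against 11.6 CPM, CCND3 at 16.5 CPM (14.1–19.1) against 7.45 CPM, and CDKN1B at 55.3 CPM (50.9–60.1) against 33.2 CPM. CCND1 was at 0.487 CPM (0.158–1.14) there, from 5 UMIs in 4 barcodes, against 0.0937 CPM. These barcodes had a median of 1160 UMIs, and red blood cell markers at 10127 CPM and stromal and smooth muscle markers at 110 CPM, against 46.7 and 24.1 CPM in other cells. In AF75, 139 barcodes with over 5000 genes held 14 UMIs of CCND1, 2.98 CPM (1.63–4.99) against 0.115 CPM, all in 2 barcodes and 9 of them in 1. Immune markers summed to 142 CPM over the 139 barcodes, against 12.9 CPM in other cells. What these barcodes hold was not tested.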

How the results depend on the processing

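Of 6 genes past the threshold between cycling and other cells, 2 passed with DESeq2 and 2 with cells thinned to 5000 UMIs (CDK6 and CDKN2C), 3 on the scale of UMIs per cell, and 1, CDK4, in the unpaired fit without the replicate block. Per cell, 6611 of 12740 genes tested passed as higher. Of all genes, 676 were higher and 351 lower of 11011 with DESeq2, and 674 and 544 of 11838 with thinned cells. Without the block, 453 and 89 of 12740 were, against 1354 and 1120 in the main fit. The other alternatives gave 5 or 6. CDKN1C, with 34 and 13 UMIs, lost its call in 8 of 19 alternatives. CCND2, which had not passed, turned to 0.21 with thinned cells, 0.091 with 500 to 6000 genes, 0.16 over all barcodes and 0.28 per cell. CCND3 turned to 0.036 with thinned cells and 0.24 per cell, and CDK6 to 0.054 per cell. In single follicles, with no test, the log2 ratio was -0.88 to 0.017 for CCND2, 0.49 to 0.54 for CDK4, -0.50 to -0.36 for CDK6 and 0.41 to 1.01 for CDKN2C. With thinned cells, the highest cluster was the same in both follicles for 2 of 8 genes, not 5, and 4 of the 8, not 2, were over 1.5-fold apart. For these counts no share over all genes was computed. Thinning left 254 and 75 cycling cells, as the limit on marker UMIs was applied again to the thinned counts and the rest counted as other cells. The causes were not tested. No call among S-leaning and G2/M-leaning cells changed in the 5 alternatives run. Of the levels recomputed, 99 in cycling cells and 72 in other cells stayed within their intervals, and 13 and 40 did not. The exclusion of cluster 2 and the scale per cell were chosen after seeing the data. Depth limits CCND1 and CDKN1A to counts.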
